A study of Mus musculus with 12 samples.

Results

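Liver natural killer T (NKT) cells that arose from CD4- CD8- double-negative (DN) thymocytes were compared with liver NKT cells that had passed through the CD4+ CD8+ double-positive (DP) stage. The comparison uses 6 of the 12 libraries of the study, 3 liver cKO and 3 liver YFP+ libraries. The other 6 are the same kinds of cells from the thymus and enter only where the tissues are compared. The cKO mice carried an E8III-Cre transgene, active in DP cells, and a loxP-flanked Rag2 gene, so that Rag2 is lost at the DP stage. In the YFP+ mice the same Cre acted on a Rosa26-loxP-STOP-loxP reporter, which marks cells that went through the DP stage and leaves Rag2 intact. All mice were C57BL/6, and all cells were sorted as 7AAD- CD45R- CD4- CD8-, CD1d dimer+ and TCRb+. Origin and kind of mouse go together in this design and cannot be told apart. Libraries were placed by their titles and the column headers. For the 6 liver libraries the submitters' free-text description gives the opposite mouse, and should that text be right, each liver direction given here turns around. No source used here says that the replicates were separate animals, and the p-values therefore rest on a spread between samples that may be technical.

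NKT cells are T cells with a near-invariant T cell receptor that binds lipids presented by CD1d. Most are selected in the thymus by DP thymocytes, start a programme under the transcription factor PLZF, and mature into NKT1, NKT2 and NKT17 cells, of which the first and second depend on T-bet and GATA3. The liver holds mainly NKT1 cells, which carry NK receptors and cytotoxic granules and stay resident in the sinusoids. A minor route in which NKT cells form before the DP stage has been described in mice, and the comparison asks how its products differ from the rest.

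The targeted gene was listed at 0 in each library titled cKO. Rag2, a subunit of the recombinase, was at 0, 0 and 0 FPKM in cKO and 1.37, 0.985 and 1.08 in YFP+, and Rag1, its partner, which the cross leaves intact, at 0.196, 0.146 and 0.223 FPKM in cKO and 1.96, 1.33 and 1.89 in YFP+. In both genes the groups are separate, although neither reached the mean of 1 FPKM from which genes were tested. FPKM count fragments relative to transcript length and to all mapped fragments. In the T cell receptor complex Cd3e was at 1018 to 1048 against 1022 to 1069 FPKM (cKO against YFP+, lowest to highest of 3 libraries, as in later ranges). Cd3e did not pass the test (log2 difference 0.10, adjusted p = 0.421). Cd4, excluded by the sort as a protein, was at 2.51, 1.53 and 1.67 FPKM in cKO and 8.35, 8.06 and 8.92 in YFP+, and Cd8a at 0.073, 0.066 and 0.251 FPKM in cKO and 1.09, 1.95 and 0.86 in YFP+.

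The 6 libraries summed to 450429 to 465304 FPKM in cKO and 509267 to 558042 in YFP+, and depth in reads is unknown. Of the genes in the table, between 6702 and 6841 genes were listed at 0 in a cKO library, and between 8800 and 8869 in a YFP+ library. Across genes, log2 values of libraries in 1 group correlated with a Pearson r of 0.9778 to 0.9879 and those in different groups with 0.9602 to 0.9634, and no library stood apart from its group. Differences below are on log2(FPKM + 1) after median-ratio scaling of the libraries, while the FPKM printed and their sums over lists are as deposited. The scaling divides cKO libraries by 0.951 to 0.967 and YFP+ libraries by 0.996 to 1.07, so sums that lie close together can change order with it. The pseudocount of 1 makes the differences understate the change of low genes.

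Of 9591 tested genes, 2079 passed with limma at an adjusted p of 0.05, which is 21.7%. In cKO, 1038 of these were higher (10.8% of tested genes) and 1041 were lower (10.9%), and the median over all tested genes was -0.01. These shares are the background for the counts of each list below. A log2 difference of -1 or less was reached by 190 called genes and one of 1 or more by 84. The leading genes of each list and the 10 largest changes were taken only from called genes whose groups do not overlap, so the separation of their groups below is part of how they were chosen. With the values as deposited, where the median gene lies at -0.11, 2607 genes passed, 718 higher and 1889 lower, so the split by direction depends on the scaling. Leaving out YFP+ replicate 2 gave 1194 genes, and leaving out cKO replicate 1, 2 or 3 gave 1265, 1240 and 1277.

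**Figure D1:**
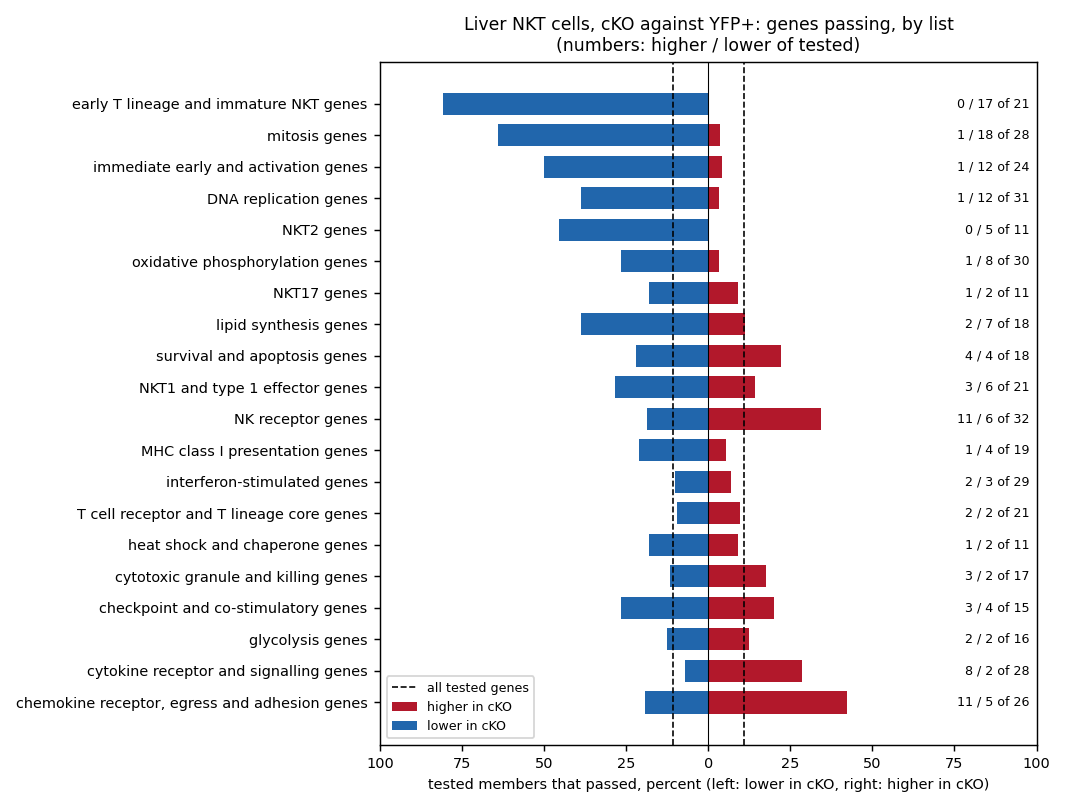
Share of the tested members of each programme list that passed in the liver, to the left lower and to the right higher in cKO, ordered by the median difference of the list; dashed lines give the 10.9% and 10.8% of all tested genes. Early T lineage, mitosis and immediate early genes reach farthest to the left, chemokine receptor and NK receptor genes farthest to the right.

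Markers of other cell types differed between the groups and are given first. Globin genes had the largest differences of all. Hbb-b1, a beta globin chain, was at 3.8, 2.0 and 3.31 FPKM in cKO and 199.7, 198 and 174 in YFP+ (-5.49, SE 0.176, adjusted p = 7.57e-07), and Hba-a1, an alpha globin chain, at 3.08, 2.89 and 4.05 FPKM in cKO and 170.0, 167 and 145 in YFP+ (-5.12). Beta-s, Hbb-b2 and Hba-a2 had differences of -5.58, -5.5 and -5.12. They are near-identical copies of these genes, so reads cannot be assigned among them with certainty. Over 15 erythroid markers in the table the summed FPKM was 14 to 18.8 in cKO and 652 to 750.1 in YFP+, and of 6 tested 5 were lower (median -5.12). Slc4a1, the anion exchanger of the red cell membrane, stayed at or below 0.017 FPKM in all 6 libraries, while Alas2, the erythroid enzyme of haem synthesis, was at 0.015 to 0.153 against 0.461 to 1.01 FPKM.

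MHC class II genes, which present peptides on B cells, dendritic cells and macrophages, followed the same direction. Of 8 tested, 7 were lower in cKO (median -2.07), and the 10 genes of the list summed to 19.8 to 23.3 in cKO and 137 to 138 in YFP+. H2-Ab1 was at 0.624, 0.718 and 0.633 FPKM in cKO and 17.6, 21.5 and 20.3 in YFP+ (-3.56, SE 0.112, adjusted p = 7.57e-07). Cd74, the invariant chain, was at 2.84, 2.78 and 3.64 FPKM in cKO and 45.8, 41.3 and 45.5 in YFP+ (-3.37, adjusted p = 1.26e-06).

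B cell markers were low in both groups. The 12 B cell markers of the table summed to 2.8 to 4.88 in cKO and 13 to 14 in YFP+, and both tested ones, the B cell receptor chains Cd79a (0.205 to 0.511 against 2.3 to 3.02 FPKM, -1.37) and Cd79b (1.68 to 2.76 against 5.13 to 7.18 FPKM, -1.05), were lower in cKO. Pax5, the B lineage regulator, was listed at 0 in 5 libraries and at 0.092 FPKM in YFP+ replicate 3. Outside this list Ly6d, a surface protein found on B lineage progenitors, was among the 10 largest decreases. It was at 2.63, 1.52 and 1.6 FPKM in cKO and 62.3, 63.9 and 59.2 in YFP+ (-4.35, SE 0.154, adjusted p = 1.26e-06). Which cells its RNA came from was not tested.

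Of 12 tested myeloid and Kupffer cell markers 7 were lower and 0 higher with limma (also 0 at an unadjusted p under 0.05, median -0.61). As deposited, their 22 genes summed to 587 to 597 in cKO and 654 to 817 in YFP+, with the lowest YFP+ sum in replicate 3. That gap depends on the scaling, and 1 of the genes, Fcer1g, also stands in the NK receptor list. The lysozymes Lyz2 and Lyz1 were at 9.21 to 13.7 against 40.8 to 56.6 FPKM (-1.74) and 2.56 to 3.75 against 11.4 to 16.8 FPKM (-1.69), while the Kupffer cell lectin Clec4f did not exceed 0.056 FPKM. With the length trend removed, 5 myeloid markers were lower and 1 higher. Of 5 tested dendritic cell markers 1 was lower and 1 higher (2 lower without YFP+ replicate 1, 2 higher without YFP+ replicate 3), and the 12 genes summed to 146 to 162 in cKO and 153 to 178 in YFP+. Ccr9, a gut homing receptor also found on immature T cells, was at 0.041 to 0.156 against 2.47 to 2.49 FPKM (-1.6), and Siglech, a lectin of plasmacytoid dendritic cells, was higher in cKO at 6.33 to 6.54 against 2.54 to 3.25 FPKM (1.05).

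Markers of liver tissue were scarce in both groups. Of 22 hepatocyte markers 5 were tested, and 2 were lower and 1 higher. Apoe, an apolipoprotein that macrophages also make, was at 1.76, 1.54 and 1.36 FPKM in cKO and 5.04, 14.7 and 12.8 in YFP+ (-2.01, SE 0.298, adjusted p = 0.00268). Trf, transferrin, was at 10.6 to 14.4 against 36.2 to 40.8 FPKM (-1.48), and Ass1, argininosuccinate synthase, was higher at 87.4 to 97.1 against 56.1 to 65.7 FPKM (0.68). Alb, the main secreted protein of hepatocytes, did not exceed 0.059 FPKM in any of the 6 libraries. The hepatocyte list summed to 107 to 117 in cKO and 117 to 123 in YFP+. Of 2 tested endothelium and stellate cell markers 1 was lower, Pecam1 at 0.995 to 1.67 against 2.64 to 3.78 FPKM (-0.83). The 16 genes of that list summed to 2.43 to 3.51 in cKO and 4.7 to 5.47 in YFP+, and Cdh5, the cadherin of endothelial junctions, was listed at 0 in all 6. In bulk RNA fewer cells of a type and less RNA per cell cannot be told apart, and the part of these cells in the differences below was not tested.

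**Figure D2:**
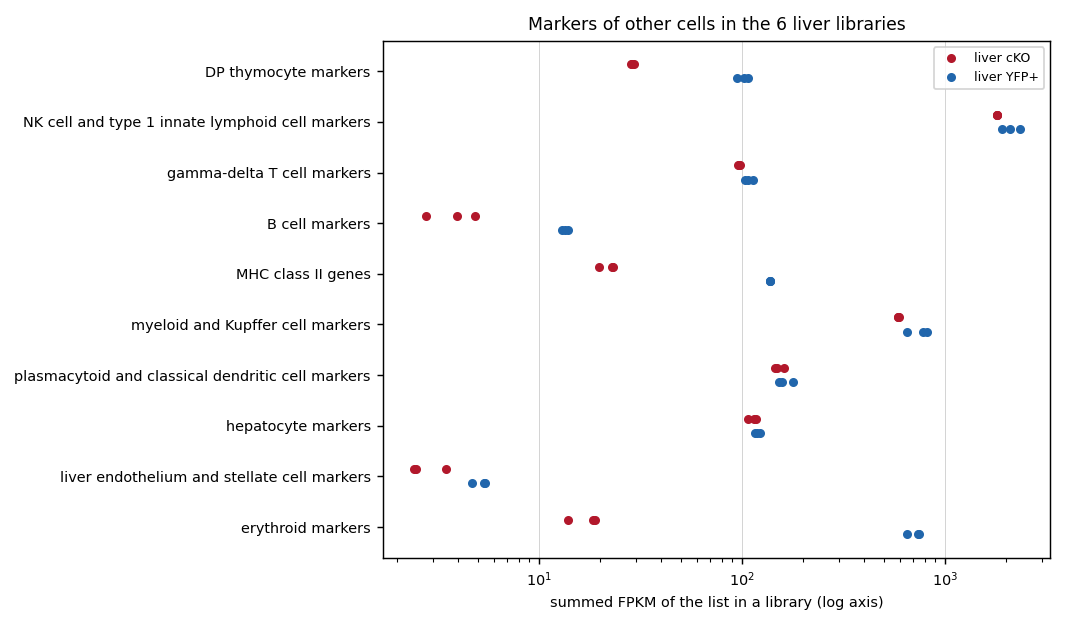
Summed FPKM of each marker list in each of the 3 cKO (red) and 3 YFP+ (blue) liver libraries, on a log axis. The groups are far apart for erythroid, MHC class II, DP thymocyte and B cell markers and close for hepatocyte and dendritic cell markers.

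Genes of early T lineage cells and of immature NKT cells fell together. Of 21 tested genes of this list 17 were lower in cKO and 0 higher with limma (also 0 at an unadjusted p under 0.05), and the median difference was -1.12 against -0.01 over all tested genes. Dntt, terminal transferase, which adds bases to rearranging receptor genes, was at 0.486, 0.768 and 0.385 FPKM in cKO and 16.4, 16.3 and 15.7 in YFP+ (-3.4, SE 0.133, adjusted p = 2.19e-06). Ccr7, which guides cells to lymph nodes, stood at 0.69, 1.81 and 1.92 FPKM in cKO and 11.8, 12.2 and 14.6 in YFP+ (-2.43, SE 0.21, adjusted p = 0.000261).

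The other called genes of the list ranged from -2.14 for Cd24a, a surface protein lost on maturation, to -0.27 for Tcf7. Tcf7 and Lef1 encode the TCF1 and LEF1 factors of early T cells, and Lef1 was at 8.21 to 13.2 against 38.4 to 43.3 FPKM (-1.83), Tcf7 at 91.9 to 95.9 against 120.4 to 125 FPKM. Tcf7 lost its call in every fit without 1 library except that without YFP+ replicate 3 (adjusted p = 0.0513 to 0.147), and with the length trend removed (0.0554) and with quantile normalization (0.17). Itm2a, a membrane protein of selected thymocytes, was at 37.9 to 40.5 against 131 to 142 FPKM (-1.63), and Id3, an inhibitor of E proteins, at 30.8 to 33.3 against 72.6 to 79.4 FPKM (-1.12). Themis, which tunes receptor signals in selection, was at 0.058 to 0.403 against 2.71 to 3.28 FPKM (-1.6). The 4 tested genes that did not pass were Egr2 (-0.32), Tox (-0.20), Cd27 (-0.17) and Tcf12 (-0.02), and all 21 differences were negative, that of Tcf12 not with array weights nor without YFP+ replicate 1 or cKO replicate 1. Cd27 and Tox passed with the values as deposited. Lef1, Itm2a, Id3, Cd24a, Themis and Tcf7 were named after their values were seen.

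DP thymocyte markers moved the same way. Of 8 tested, 7 were lower (median -1.37), and the 15 genes summed to 28.3 to 29.4 in cKO and 95.1 to 108 in YFP+. The list shares 5 genes with the early T lineage list, 2 of them called, so the lists are not independent. Cd8b1, the CD8 beta chain, was at 0.879, 0.595 and 1.06 FPKM in cKO and 15.3, 11.9 and 12.1 in YFP+ (-2.85, SE 0.162, adjusted p = 3.03e-05). Cd4 had a difference of -1.62 (adjusted p = 0.000355), and Cd1d1, which presents lipids to NKT cells and is high on DP cells, was at 8.91, 9.63 and 11.2 FPKM in cKO and 24.1, 26.2 and 22.8 in YFP+ (-1.11, SE 0.112, adjusted p = 0.000485). The sort excluded CD4+ and CD8+ cells, and RNA of both coreceptors was nonetheless higher in the YFP+ libraries. Whether the early T lineage difference lies in NKT cells or in DP-like cells was not tested.

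Many genes of cell division were lower in cKO. Of 28 tested mitosis genes 18 were lower (64.3%, all genes 10.9%) and 1 higher (3.57%, all genes 10.8%). The median was -0.80. Ube2c, the ubiquitin-conjugating enzyme of the anaphase-promoting complex, was at 3.07, 3.26 and 2.02 FPKM in cKO and 12.5, 19.5 and 19.4 in YFP+ (-2.15, SE 0.186, adjusted p = 0.000261). Ccnb1 and Ccnb2, the B-type cyclins that drive entry into mitosis, were at 1.35, 2.41 and 2.54 against 12.2, 11.9 and 14.6 FPKM (-2.09) and 2.85, 3.13 and 3.98 against 14, 13.5 and 12.9 FPKM (-1.65). Birc5, survivin of the chromosomal passenger complex, was at 2.92, 1.94 and 3.16 against 8.73, 8.64 and 6.96 FPKM (-1.23).

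Cdc25b, a phosphatase that activates cyclin-dependent kinases, was the 1 mitosis gene that was higher, at 10.4, 10.3 and 11.2 FPKM in cKO and 4.75, 5.11 and 5.43 in YFP+ (1.04, SE 0.101, adjusted p = 0.000424). The kinases Cdk1, Plk1, Aurka and Aurkb were all lower, with differences of -0.82, -0.77, -0.78 and -1.48, and the topoisomerase Top2a was at 4.3 to 5.59 against 9.59 to 11.2 FPKM (-0.81). Plk1 lost its call without YFP+ replicate 2 (adjusted p = 0.052) and without cKO replicate 3 (adjusted p = 0.0505), and with low genes kept (0.0522). Mki67, the usual marker of cycling cells, did not pass (1.7 to 2.36 against 2.66 to 3.09 FPKM, -0.26, adjusted p = 0.186) except with the length trend removed. These kinases, Top2a and Mki67 were named after their values were seen.

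The promoters of the 4 mitosis genes with the largest change among those matched in the RefSeq promoter table (build GRCm38.p6; Pbk and Aurkb were not matched) are shown because these genes move together and mitotic genes are known to share a cell cycle homology region and CCAAT boxes. Each line runs 5′ to 3′ from 250 bases before the RefSeq start to 30 after it, and capitals mark matches to TTTGAA or CCAAT on either strand.
Ube2c, chr2:164769679-164769958, plus strand: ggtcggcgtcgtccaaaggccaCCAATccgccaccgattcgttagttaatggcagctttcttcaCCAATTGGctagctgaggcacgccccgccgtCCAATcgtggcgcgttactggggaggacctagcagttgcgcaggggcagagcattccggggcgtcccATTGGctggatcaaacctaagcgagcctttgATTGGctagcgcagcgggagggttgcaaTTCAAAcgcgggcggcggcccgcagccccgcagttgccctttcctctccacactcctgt
Ccnb1, chr13:100786457-100786736, minus strand: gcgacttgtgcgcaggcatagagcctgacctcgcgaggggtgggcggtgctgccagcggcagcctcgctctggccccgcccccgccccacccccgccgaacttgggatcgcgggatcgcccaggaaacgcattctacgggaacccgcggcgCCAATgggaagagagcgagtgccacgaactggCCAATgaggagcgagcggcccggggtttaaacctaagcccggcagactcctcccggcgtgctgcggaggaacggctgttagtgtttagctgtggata
Ccnb2, chr9:70421525-70421804, minus strand: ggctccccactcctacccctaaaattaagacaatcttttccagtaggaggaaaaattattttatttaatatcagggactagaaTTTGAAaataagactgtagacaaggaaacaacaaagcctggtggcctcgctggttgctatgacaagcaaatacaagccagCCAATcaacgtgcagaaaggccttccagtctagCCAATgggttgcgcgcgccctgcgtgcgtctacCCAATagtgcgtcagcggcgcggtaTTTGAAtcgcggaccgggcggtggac
Birc5, chr11:117848987-117849266, plus strand: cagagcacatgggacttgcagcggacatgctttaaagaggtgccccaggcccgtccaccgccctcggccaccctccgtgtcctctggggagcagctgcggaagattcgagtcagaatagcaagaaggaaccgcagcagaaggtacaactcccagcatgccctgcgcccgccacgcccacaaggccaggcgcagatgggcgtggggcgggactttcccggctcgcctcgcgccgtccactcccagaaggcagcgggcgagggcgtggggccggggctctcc
Ube2c holds 1 match to TTTGAA and 6 to CCAAT, of which 1 pair overlaps in 2 bases. Ccnb1 holds no TTTGAA and 2 CCAAT, Ccnb2 holds 2 and 3, and Birc5 holds neither. Over 27025 promoters of this length, 17.4% hold TTTGAA, 36.6% CCAAT and 6.54% both. Of the 29 promoters matched to the mitosis list, 58.6% hold TTTGAA, 75.9% CCAAT and 51.7% both. These are matches of letters in a window and say nothing of binding.

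Of 31 tested DNA replication genes 12 were lower (38.7%, all genes 10.9%) and 1 higher (3.23%, all genes 10.8%). The median was -0.42. Tk1, thymidine kinase, was at 6.82, 9.37 and 4.81 FPKM in cKO and 19.7, 18.8 and 22.5 in YFP+ (-1.34, SE 0.195, adjusted p = 0.00241), and Rfc4, a subunit of the clamp loader, at 9.73, 10.8 and 10.4 FPKM in cKO and 33.6, 27.2 and 28.1 in YFP+ (-1.32, SE 0.123, adjusted p = 0.000344). Pcna, the sliding clamp, was at 72.7 to 79.2 against 117 to 145 FPKM (-0.61, named after its value was seen). Tyms, thymidylate synthase, was the gene that was higher, at 42.6, 41 and 40.5 FPKM in cKO and 20.8, 18 and 20.9 in YFP+ (1.14, SE 0.101, adjusted p = 0.000273). Its processed pseudogene Tyms-ps, also named after the fact, was at 50.8 to 57.1 against 15.1 to 20.9 FPKM (1.66), and reads shared between the pair leave the level of each uncertain.

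Immediate early genes, which cells switch on rapidly after receptor signals or stress, were lower in cKO liver. Of 24 tested members of the list 12 were lower (50%, all genes 10.9%) and 1 higher (4.17%, all genes 10.8%). The median was -0.76. Rgs1, which dampens chemokine receptor signals, was at 72.5, 71.4 and 67.8 FPKM in cKO and 387, 363 and 342 in YFP+ (-2.23, SE 0.0947, adjusted p = 3.94e-06). Atf3, a stress-induced factor of the AP-1 type, was at 1.26, 0.283 and 0.454 FPKM in cKO and 6.53, 6.51 and 6.36 in YFP+ (-2.13, SE 0.211, adjusted p = 0.000447). In Rgs1 the 3 libraries of a group lie close together, while Atf3 varied among the cKO libraries. That the groups are separate in both genes is part of how they were chosen.

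The AP-1 subunits Fos, Fosb and Jun had differences of -1.99, -1.55 and -1.7, with Fos at 15.1 to 17.1 against 67 to 79.4 FPKM. The phosphatase Dusp1 (-1.95) and the feedback inhibitors Tnfaip3 (-1.87) and Nfkbia (-0.96) were lower too, as were the receptor-induced factor Nr4a1 (-1.86) and the activation marker Cd69 (-0.92). Junb (-1.03, adjusted p = 0.0993) and 10 others did not pass, and Junb passed without YFP+ replicate 1 (adjusted p = 0.000133). Myc, a driver of growth, was the 1 member that was higher, at 22.8, 20.2 and 21.4 FPKM in cKO and 8.64, 10.0 and 11.4 in YFP+ (1.15, SE 0.11, adjusted p = 0.000383). Apart from Rgs1, Atf3 and Myc, the genes of this list were named after their values were seen.

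Of 11 tested heat shock genes, which encode chaperones, 2 were lower (18.2%, all genes 10.9%) and 1 higher (9.09%, all genes 10.8%). The median was 0.03. The co-chaperone Dnajb1 was at 22.2 to 25.5 against 42.5 to 56.7 FPKM (-0.92, adjusted p = 0.00108) and Hsph1 higher at 21.5 to 24.2 against 9.71 to 14.6 FPKM (1.06, adjusted p = 0.00145). Hspd1 was at 76.4 to 87.5 against 108 to 111 FPKM (-0.31, adjusted p = 0.036) and lost its call in every fit without 1 library except that without YFP+ replicate 3 (adjusted p = 0.0509 to 0.135), and with the length trend removed (0.0556), with low genes kept (0.0509) and with quantile normalization (0.143). The count of lower members was 1 without cKO replicate 1, 2 or 3 or YFP+ replicate 1 or 2, and that of higher ones 2 without YFP+ replicate 1.

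The lineage factors Zbtb16, Tbx21 and Gata3 did not pass. Zbtb16, which encodes PLZF, was at 9.58, 10.9 and 9.08 FPKM in cKO and 8.91, 12 and 13.4 in YFP+ (-0.07, SE 0.137, adjusted p = 0.73). Tbx21, which encodes T-bet, was at 18.8, 18.6 and 17.8 FPKM in cKO and 20.5, 19.7 and 26.9 in YFP+ (-0.14, SE 0.121, adjusted p = 0.421), and Gata3 at 81.3, 79.7 and 83.5 FPKM in cKO and 76.2, 91.5 and 96.7 in YFP+ (0.01, SE 0.0894, adjusted p = 0.925). In Zbtb16 and Gata3 the groups overlap. In Tbx21 every YFP+ library is above the cKO libraries by a small margin in FPKM as deposited, but after scaling the groups overlap.

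Type 1 effector genes moved in both directions. Of 21 tested NKT1 and type 1 effector genes 3 were higher (14.3%, all genes 10.8%) and 6 lower (28.6%, all genes 10.9%). The median was -0.11. Ccl5, an effector cell chemokine, was at 3617, 3513 and 3773 FPKM in cKO and 2453, 2168 and 1960.0 in YFP+ (0.85, SE 0.12, adjusted p = 0.00209), and Il2rb, the receptor chain for IL-2 and IL-15, at 485, 490.1 and 519.7 FPKM in cKO and 337, 384 and 403 in YFP+ (0.53, SE 0.0818, adjusted p = 0.00307). Ccl4 and Ccl3, chemokines released on activation, were lower at 6.37, 4.12 and 6.7 against 20.6, 28.4 and 20.0 FPKM (-1.73) and 0.845, 0.763 and 1.07 against 3.12, 4.35 and 2.04 FPKM (-1.03). Ifng, the type 1 cytokine, was at 34, 31.1 and 32.9 FPKM in cKO and 59.6, 56.4 and 57.8 in YFP+ (-0.69, SE 0.0902, adjusted p = 0.00156). Xcl1, the chemokine lymphotactin (-0.69), and Stat4, which relays IL-12 signals (-0.68), both named after their values were seen, were lower as well. The activation chemokines and Ifng were thus lower and the abundant chemokine Ccl5 higher in the same libraries.

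Of 11 tested NKT2 genes 5 were lower (45.5%, all genes 10.9%) and 0 higher (all genes 10.8%) with limma. The higher count was also 0 at an unadjusted p under 0.05, and the median was -0.32. Plac8, a small cysteine-rich protein of leukocytes, was at 2.18, 1.38 and 1.99 FPKM in cKO and 47.8, 43.5 and 45.7 in YFP+ (-3.95, SE 0.138, adjusted p = 1.26e-06). Tnfrsf4, the co-stimulatory receptor OX40, was at 0.515, 0.31 and 0.87 FPKM in cKO and 6.76, 5.96 and 5.47 in YFP+ (-2.11, SE 0.171, adjusted p = 0.000193). Il4, the type 2 cytokine, was at 14.1, 14.6 and 8.74 FPKM in cKO and 20.1, 17.1 and 13.4 in YFP+ and did not pass (-0.31, SE 0.217, adjusted p = 0.335). The other 3 lower members were the surface receptors Slamf6 (-1.82), Folr4 (-0.91) and Il6ra (-0.80), while Il17rb, the IL-25 receptor chain (-0.32), did not pass. Those 4 were named after their values were seen.

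Of 11 tested NKT17 genes 2 were lower (18.2%, all genes 10.9%) and 1 higher (9.09%, all genes 10.8%). The median was -0.31, and with the length trend removed 4 were lower and 1 higher. Blk, a Src family kinase, was lower at 7.14, 6.07 and 5.39 FPKM in cKO and 10.8, 11.1 and 12.3 in YFP+ (-0.68, SE 0.123, adjusted p = 0.00626). Il7r, the IL-7 receptor chain, was at 336, 348 and 326 FPKM in cKO and 287, 299 and 329 in YFP+ (0.26, SE 0.0798, adjusted p = 0.0484), and lost the call in every fit without 1 library except those without YFP+ replicate 1 and YFP+ replicate 3 (adjusted p = 0.107 to 0.162), and with the values as deposited (0.195), with low genes kept (0.0651) and with a pseudocount of 5 (0.0515). The higher count was 0 without cKO replicate 1, 2 or 3 or YFP+ replicate 2, and the lower count 1 without cKO replicate 3. Il17a, below the tested level, was listed at 0 in all 3 cKO libraries and at 0.27, 0.297 and 0.397 FPKM in YFP+.

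Of 17 tested cytotoxic genes 3 were higher (17.6% against 10.8% of all genes) and 2 lower (11.8% against 10.9%), with a median of 0.05, while with the values as deposited 2 were higher and 5 lower, and with the length trend removed 5 and 1. Gzmb, granzyme B, was at 647, 615 and 657 FPKM in cKO and 439, 395 and 399 in YFP+ (0.76, SE 0.0956, adjusted p = 0.00136). Rab27a, which docks granules, was at 16.3, 16.8 and 17.4 FPKM in cKO and 10.7, 12.4 and 9.04 in YFP+ (0.73, SE 0.124, adjusted p = 0.00502).

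Prf1, perforin, was at 44.3, 42.2 and 42 FPKM in cKO and 34.4, 30.6 and 41.9 in YFP+ and fell just short of the threshold (0.39, SE 0.12, adjusted p = 0.0504). It passed without YFP+ replicate 3 (adjusted p = 0.017). Serpinb6b, a serpin inhibitor, was at 35.9 to 41 against 53.2 to 60.9 FPKM (-0.43, adjusted p = 0.0215) and lost its call without cKO replicate 1 (adjusted p = 0.0577), without cKO replicate 2 (adjusted p = 0.0862) and without cKO replicate 3 (adjusted p = 0.051). Fasl, the Fas ligand, was at 56.4 to 60.2 against 77.9 to 85.7 FPKM (-0.36, adjusted p = 0.0252) and lost its call in every fit without 1 library except those without YFP+ replicate 1 and YFP+ replicate 3 (adjusted p = 0.0651 to 0.1), and with the length trend removed (0.0655) and with quantile normalization (0.0572). The lower count was 0 without cKO replicate 1, 2 or 3, 1 without YFP+ replicate 2 and 4 without YFP+ replicate 3.

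NK receptor genes split. Of 32 tested, 11 were higher and 6 lower in cKO (median -0.08), with the values as deposited 11 and 15, and with the length trend removed 15 and 6. The share of higher members, 34.4%, lies above the 10.8% of all genes and that of lower members, 18.8%, above the 10.9%. Ncr1, the activating receptor NKp46, was at 2.87, 1.72 and 1.97 FPKM in cKO and 0.274, 0.502 and 0.179 in YFP+ (1.32, SE 0.179, adjusted p = 0.00186). It was low in both groups.

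Klra genes encode the Ly49 receptors for MHC class I, are close copies of each other and share reads, so the level of each is uncertain. The counts of NK receptor genes treat these copies as separate genes, although they are not independent. Klra13-ps, listed as a pseudogene, was at 1442, 1572 and 1485 FPKM in cKO and 757, 752 and 792 in YFP+ (1.09, SE 0.0821, adjusted p = 0.000151). Klra23 (1.07), Klra5 (0.93), Klra7 (0.70) and Klra4 (0.58) were higher as well. Klra9 was lower at 492, 518 and 496 FPKM in cKO and 993, 921 and 845 in YFP+ (-0.75, SE 0.101, adjusted p = 0.00179), as were Klra10 (-0.71) and Klra3 (-0.51). Klrk1, the activating receptor NKG2D, was higher at 166 to 175 against 131 to 135 FPKM (0.46). Klra3, Klra4, Klra5 and Klrk1 were named after their values were seen.

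Of 11 tested markers shared by NK cells and innate lymphoid cells of type 1, 3 were higher and 0 lower with limma (median 0.08), with the values as deposited 2 and 4. At an unadjusted p under 0.05, 4 were lower. Without YFP+ replicate 3 the lower count was 3, and the higher count was 1 without cKO replicate 1. The 12 genes summed to 1798 to 1811 in cKO and 1915 to 2349 in YFP+ as deposited, an order that depends on the scaling. Of these genes 7 also stand in the NK receptor list. Klre1, a lectin-like receptor, was at 189 to 197 against 125 to 155 FPKM (0.60), and Eomes, a factor of NK cells, was at 0.552 to 0.668 against 0.372 to 0.645 FPKM, below the tested level. NKT1 cells themselves express most of these genes.

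Of 15 tested checkpoint and co-stimulatory genes 3 were higher (20%, all genes 10.8%) and 4 lower (26.7%, all genes 10.9%). The median was 0.06, and with the values as deposited 2 were higher and 7 lower. Pdcd1, the inhibitory receptor PD-1, was at 13.9, 13.4 and 13.7 FPKM in cKO and 26.8, 22.1 and 24.8 in YFP+ (-0.68, SE 0.112, adjusted p = 0.00417). Tnfsf8, the CD30 ligand, was higher at 11.9, 10.9 and 10.8 FPKM in cKO and 4.72, 4.61 and 3.63 in YFP+ (1.3, SE 0.13, adjusted p = 0.000456). Tigit, another inhibitory receptor, was at 14.1 to 19.3 against 11.2 to 13.4 FPKM (0.51, adjusted p = 0.0336), and lost its call without YFP+ replicate 2 (adjusted p = 0.114), without cKO replicate 1 (adjusted p = 0.11) and without cKO replicate 3 (adjusted p = 0.0933), and with the values as deposited (0.0568) and with low genes kept (0.0798). With OX40, PD-1 and CD28 (-0.49, named after its value was seen) lower and CD30 ligand higher, the list had no common direction.

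Of 26 tested chemokine receptor, egress and adhesion genes 11 were higher, 42.3% against 10.8% of all genes, and 5 lower, 19.2% against 10.9% (median 0.28). With the values as deposited 9 were higher and 6 lower, and with the length trend removed 10 and 5. Ccr10, a receptor for skin and mucosal chemokines, was at 25.6, 27.2 and 20.4 FPKM in cKO and 3.24, 5.49 and 6.25 in YFP+ (2.22, SE 0.188, adjusted p = 0.00024). Cx3cr1, the fractalkine receptor, was at 9.23, 8.87 and 8.75 FPKM in cKO and 3.79, 4.07 and 3.92 in YFP+ (1.12, SE 0.103, adjusted p = 0.000335).

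Lower members included Ccr7, Ccr9, Cxcr4 and the retention marker Cd69. Cxcr4, which holds cells in bone marrow and other tissues, was at 3.91, 3.39 and 2.97 FPKM in cKO and 11.9, 11.9 and 10.9 in YFP+ (-1.41, SE 0.126, adjusted p = 0.000274). Higher members included 6 integrin chains, Itgae (0.90), Itga4 (0.84), Itgal (0.78), Itgb2 (0.62), Itga1 (0.50) and Itgb1 (0.47), and the receptors Ccr2 (1.05) and S1pr1 (0.50). Itga1 lost its call in every fit without 1 library except that without YFP+ replicate 3 (adjusted p = 0.0725 to 0.123), and with the values as deposited (0.0841), with the length trend removed (0.178) and with low genes kept (0.0828). Itgb1 lost it in every fit without 1 library except those without YFP+ replicate 1 and YFP+ replicate 3 (adjusted p = 0.0592 to 0.0882), and with the values as deposited (0.0674) and with low genes kept (0.0505). Cxcr6, which keeps NKT cells in the liver, was at 358 to 372 against 431 to 466 FPKM and did not pass (-0.19, adjusted p = 0.141) except with the values as deposited and with array weights. The integrin chains, Ccr2, S1pr1, Cxcr4 and Cxcr6 were named after their values were seen.

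**Figure D3:**
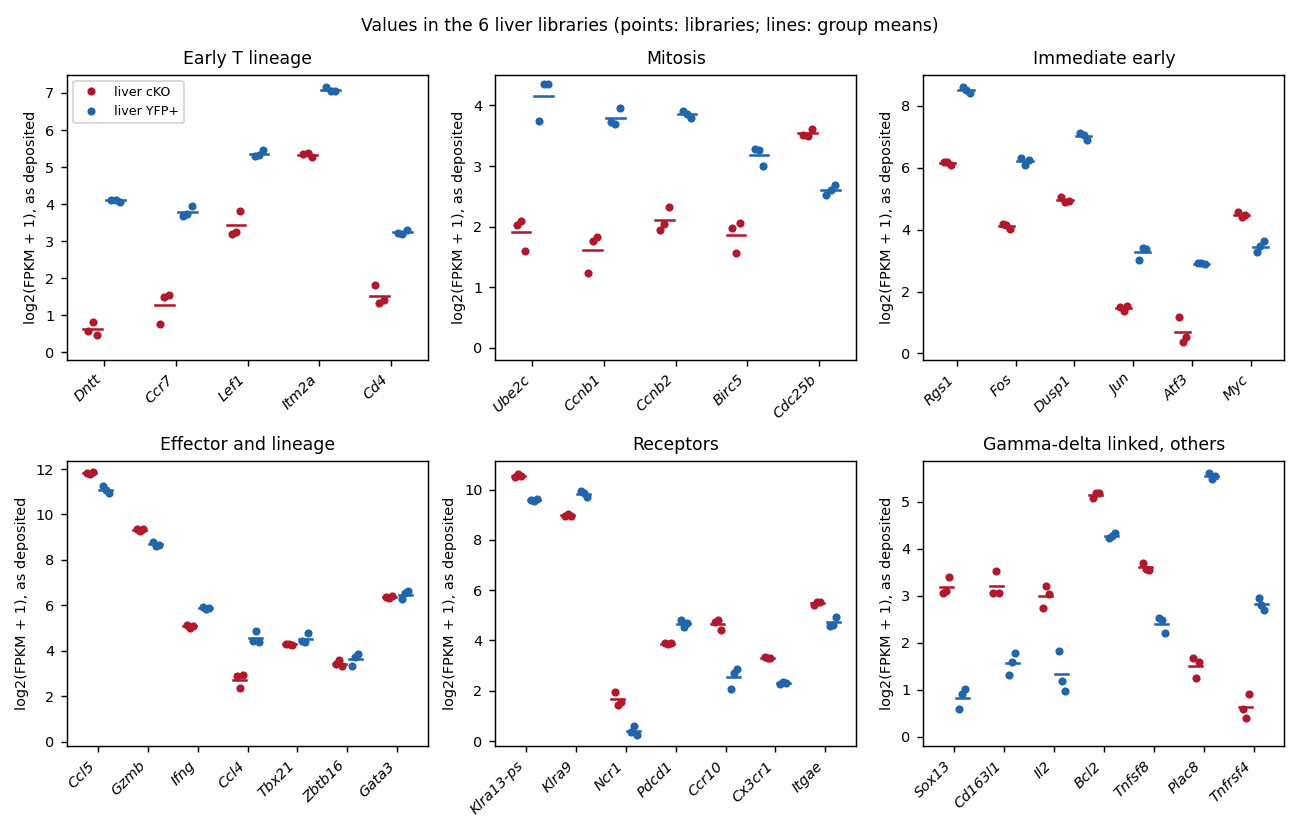
Deposited values on the log2(FPKM + 1) scale of named genes in the 6 liver libraries, cKO in red and YFP+ in blue, with a short line at the mean of each group. Dntt, Ube2c, Rgs1, Plac8 and Tnfrsf4 lie lower in cKO, and Sox13, Ccr10, Ncr1 and Tnfsf8 higher, while Tbx21, Zbtb16 and Gata3 overlap or touch.

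Of 28 tested cytokine receptor and signalling genes 8 were higher (28.6%, all genes 10.8%) and 2 lower (7.14%, all genes 10.9%). The median was 0.20. Il10ra, the IL-10 receptor chain, was at 23.4, 20.5 and 18.4 FPKM in cKO and 11.1, 11.8 and 10.0 in YFP+ (0.98, SE 0.121, adjusted p = 0.00129), and Tyk2, a Janus kinase, at 9.0, 10.4 and 9.99 FPKM in cKO and 3.74, 5.42 and 6.8 in YFP+ (0.91, SE 0.163, adjusted p = 0.00608). Socs3, a feedback inhibitor, was at 3.06 to 5.02 against 5.76 to 8.97 FPKM (-0.76, adjusted p = 0.0225), and Il2ra, the high-affinity IL-2 receptor chain, at 0.744 to 1.47 against 2.04 to 2.55 FPKM (-0.69, adjusted p = 0.0224). Socs3 lost its call in every fit without 1 library except those without cKO replicate 3 and YFP+ replicate 1 (adjusted p = 0.051 to 0.0847), and with low genes kept (0.07). Il2ra lost it without YFP+ replicate 2 (adjusted p = 0.0767), without cKO replicate 2 (adjusted p = 0.0783) and without cKO replicate 3 (adjusted p = 0.076), and with low genes kept (0.0668). The lower count was 0 without cKO replicate 2 or YFP+ replicate 2, 1 without cKO replicate 1 or 3 or YFP+ replicate 3 and 4 without YFP+ replicate 1.

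Of 18 tested survival genes 4 were higher (22.2%, all genes 10.8%) and 4 lower (22.2%, all genes 10.9%). The median was -0.22. With the values as deposited 3 were higher and 6 lower, and with the length trend removed 4 and 1. Bcl2, the anti-apoptotic protein, was at 32.7, 35.6 and 35.5 FPKM in cKO and 17.7, 18.2 and 19.3 in YFP+ (0.99, SE 0.0856, adjusted p = 0.000261), and Fadd, the death receptor adaptor, at 79.3, 74.7 and 82.5 FPKM in cKO and 46.1, 42.1 and 56.9 in YFP+ (0.82, SE 0.117, adjusted p = 0.00221). Birc3, an inhibitor of apoptosis, was lower at 8.29 to 11 against 14.6 to 16.3 FPKM (-0.53), and lost its call without YFP+ replicate 2 (adjusted p = 0.0506). The higher count was 2 without cKO replicate 1 or 2 or YFP+ replicate 3, and the lower count 1 without cKO replicate 1, 2 or 3 or YFP+ replicate 2.

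The largest increase of all was Sox13, a transcription factor of the gamma-delta T cell lineage, at 7.29, 7.53 and 9.56 FPKM in cKO and 0.497, 0.867 and 1.02 in YFP+ (2.43, SE 0.155, adjusted p = 6.54e-05). Cd163l1, a scavenger receptor of gamma-delta T cells, was at 7.38, 10.5 and 7.37 FPKM in cKO and 1.47, 2.0 and 2.45 in YFP+ (1.75, SE 0.167, adjusted p = 0.000382), and its relative 5830411N06Rik, named after its value was seen, at 4.84 to 5.19 against 1.1 to 1.85 FPKM (1.38). Of 7 tested gamma-delta markers these 3 were higher, while Blk and Gpr183, an oxysterol receptor (44.8 to 47.1 against 65.6 to 74 FPKM, -0.48), were lower. The 8 of 14 listed markers that the table holds summed to 95.5 to 97.8 in cKO and 103 to 114 in YFP+ as deposited. The order of these sums depends on the scaling, and Gpr183 makes up a large part of them. The other 6 symbols of the list were not analysed here.

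Other large increases were Rln3, relaxin 3, at 23.9, 16.1 and 24 FPKM in cKO and 3.7, 4.21 and 4.11 in YFP+ (2.24), and Il2, the T cell growth cytokine, at 5.68, 8.22 and 7.25 FPKM in cKO and 2.53, 1.26 and 0.976 in YFP+ (1.75). Cntnap1, a contactin-associated protein of neurons, was at 5.31 to 5.54 against 0.269 to 0.987 FPKM (2.08), and Nkain3 at 24.2 to 27.5 against 6.8 to 8.05 FPKM (1.83). The pseudogenes Speer7-ps1 (2.17) and Olfr856-ps1 (1.77) and the predicted gene Gm6213 (2.11) complete the 10 largest. Speer7-ps1 was listed at 0 in all 3 YFP+ libraries and at 3.34, 4.91 and 2.22 FPKM in cKO. Among decreases, the microRNA row Mir1904 was listed at 0 in cKO and at 11.1, 12.3 and 9.56 FPKM in YFP+ (-3.52), and a row this short is uncertain in FPKM.

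T cell receptor genes were close to the background. Of 21 tested genes 2 were higher (9.52%, all genes 10.8%) and 2 lower (9.52%, all genes 10.9%). The median was -0.03. Sh2d1a, the SLAM adaptor SAP that NKT cells need to develop, was at 25, 24.4 and 23.7 FPKM in cKO and 74.2, 54.4 and 65.7 in YFP+ (-1.25, SE 0.133, adjusted p = 0.000661). The other 3 calls were small. Cd247, the zeta chain, was at 0.44 and lost its call without YFP+ replicate 2 (adjusted p = 0.0589) and without cKO replicate 1 (adjusted p = 0.058). Txk, a Tec family kinase, was at -0.33 (adjusted p = 0.0357) and lost its call in every fit without 1 library except that without YFP+ replicate 3 (adjusted p = 0.0624 to 0.131), and with quantile normalization (0.0754). Ptprc, CD45, was at 0.26 (adjusted p = 0.0455) and lost its call in every fit without 1 library except that without YFP+ replicate 1 (adjusted p = 0.0511 to 0.136), and with the values as deposited (0.228) and with the length trend removed (0.311). The higher count was 0 without cKO replicate 1 or YFP+ replicate 2 and 1 without cKO replicate 2 or 3, and the lower count 1 without cKO replicate 1, 2 or 3 or YFP+ replicate 2.

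Of 29 tested interferon-stimulated genes 2 were higher (6.9%, all genes 10.8%) and 3 lower (10.3%, all genes 10.9%). The median was -0.05, and with the values as deposited 1 was higher and 8 lower. Oas3, a sensor of double-stranded RNA, was at 26.6, 29.6 and 30.2 FPKM in cKO and 13.5, 16.2 and 18 in YFP+ (0.94, SE 0.107, adjusted p = 0.000872). Ddx58, the RNA sensor RIG-I, was at 0.42 and lost its call without YFP+ replicate 2 (adjusted p = 0.0639), without cKO replicate 2 (adjusted p = 0.0518) and without cKO replicate 3 (adjusted p = 0.07), and with the values as deposited (0.0568). Rtp4 was at -0.46 and lost its call in every fit without 1 library except those without YFP+ replicate 1 and YFP+ replicate 3 (adjusted p = 0.0529 to 0.0784). Igtp, an interferon-induced GTPase, was at -0.41 and lost its call without cKO replicate 1 (adjusted p = 0.0585) and without cKO replicate 2 (adjusted p = 0.067). The higher count was 1 without cKO replicate 3 or YFP+ replicate 2, and the lower count 0 without cKO replicate 1 or 2 and 1 without cKO replicate 3 or YFP+ replicate 2.

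Of 19 tested MHC class I presentation genes 4 were lower (21.1%, all genes 10.9%) and 1 higher (5.26%, all genes 10.8%). The median was -0.06, and with the values as deposited 7 were lower and 0 higher. Psmb9 and Psmb8, subunits of the immunoproteasome, were at 28.7, 37.7 and 35.9 against 114, 98 and 98.4 FPKM (-1.46, adjusted p = 0.000271) and 199, 189 and 199 against 314, 326 and 302 FPKM (-0.56, adjusted p = 0.00239). Nlrc5, the class I transactivator, was at 0.61 (adjusted p = 0.0353) and lost its call in every fit without 1 library except that without YFP+ replicate 3 (adjusted p = 0.0581 to 0.118), and with the values as deposited (0.07), with the length trend removed (0.0972) and with low genes kept (0.0915). The lower count was 2 without cKO replicate 1, 2 or 3 or YFP+ replicate 2 and 7 without YFP+ replicate 1, and the higher count 0 without cKO replicate 1, 2 or 3 or YFP+ replicate 1 or 2 and 2 without YFP+ replicate 3.

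Of 18 tested lipid synthesis genes 7 were lower (38.9%, all genes 10.9%) and 2 higher (11.1%, all genes 10.8%). The other 9 did not pass, and the median was -0.25. Sqle, squalene epoxidase, was at 1.09, 1.78 and 1.16 FPKM in cKO and 4.16, 5.93 and 4.21 in YFP+ (-1.21, SE 0.168, adjusted p = 0.00202), and Idi1, an isoprenoid isomerase, at 2.01, 1.24 and 1.02 FPKM in cKO and 4.67, 3.56 and 4.55 in YFP+ (-1.05, SE 0.186, adjusted p = 0.00575). The other 5 lower members, Fdps, Fdft1, Cyp51, Sc4mol and Hmgcs1, are also enzymes of the sterol pathway and were named after their values were seen, with differences of -1.05, -0.84, -0.71, -0.71 and -0.54. Dhcr7 and Lss, also of that pathway and named after the fact, are among those that did not pass. Hmgcs1 lost its call without cKO replicate 1 (adjusted p = 0.0672) and without cKO replicate 2 (adjusted p = 0.059). The 2 higher members act on fatty acids. Acly, which supplies acetyl-CoA, was at 21.2, 24.8 and 23.2 FPKM in cKO and 13.6, 13.7 and 15.3 in YFP+ (0.77, SE 0.0978, adjusted p = 0.00136), and Elovl5, a fatty acid elongase, at 32.8, 33.8 and 32 FPKM in cKO and 20.0, 23.4 and 24.9 in YFP+ (0.63).

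Of 30 tested oxidative phosphorylation genes 8 were lower (26.7%, all genes 10.9%) and 1 higher (3.33%, all genes 10.8%). The median was -0.31. With the values as deposited 23 were lower and 0 higher, and with the length trend removed 5 and 1. Uqcrc2, a core subunit of complex III, was at 45.9, 47.2 and 52.1 FPKM in cKO and 90.6, 81.6 and 74.8 in YFP+ (-0.63, SE 0.112, adjusted p = 0.00563). Uqcrfs1, the iron-sulphur subunit, was at 8.67, 9.17 and 7.34 against 14.4, 14.8 and 35.4 FPKM (-1.03), with YFP+ replicate 3 well above the other 2. It lost its call without cKO replicate 1 (adjusted p = 0.0857), without cKO replicate 2 (adjusted p = 0.0831) and without cKO replicate 3 (adjusted p = 0.105), and with the length trend removed (0.0972) and with low genes kept (0.114). Uqcrc1 was at 0.30 (adjusted p = 0.0465) and lost its call in every fit without 1 library except that without YFP+ replicate 3 (adjusted p = 0.0652 to 0.153), and with the values as deposited (0.191) and with low genes kept (0.0696). The lower count was 3 without cKO replicate 1 or 2, 4 without cKO replicate 3 or YFP+ replicate 2 and 20 without YFP+ replicate 3, and the higher count 0 without cKO replicate 1, 2 or 3 or YFP+ replicate 1 or 2.

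Of 16 tested glycolysis genes 2 were higher (12.5%, all genes 10.8%) and 2 lower (12.5%, all genes 10.9%). The median was 0.10, and with the values as deposited 2 were higher and 6 lower. Ldhb, the lactate dehydrogenase subunit of resting cells, was at 8.57, 6.5 and 4.99 FPKM in cKO and 30.5, 23.9 and 24.5 in YFP+ (-1.74, SE 0.19, adjusted p = 0.000702). Pgam1 was at -0.44 and lost its call without cKO replicate 2 (adjusted p = 0.0636), and with the length trend removed (0.0629). Eno1, the main enolase, was at 0.35 and lost its call in every fit without 1 library except those without YFP+ replicate 1 and YFP+ replicate 3 (adjusted p = 0.0545 to 0.0795). Eno3 was at 0.68 and lost its call without YFP+ replicate 2 (adjusted p = 0.0503). The higher count was 0 without YFP+ replicate 2, 1 without cKO replicate 1, 2 or 3 and 4 without YFP+ replicate 1, and the lower count 1 without cKO replicate 2 and 5 without YFP+ replicate 3.

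Transcript length moved with the groups. Over 9458 tested genes with a known length (98.6%), the median difference rose from -0.25 in genes whose longest annotated transcript is under 1 kb to 0.19 in those over 6 kb. In the shortest class 22.2% were lower and 4.46% higher, and in the longest 2.49% and 19.1%. Short genes such as the oxidative phosphorylation subunits and long ones such as the integrins thus start from different backgrounds. With the trend removed, an alternative chosen after seeing the data, 1827 genes passed, 1505 of them shared with the 2079, and 16 of 21 early T lineage, 18 of 28 mitosis and 12 of 24 immediate early genes were lower.

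**Figure D4:**
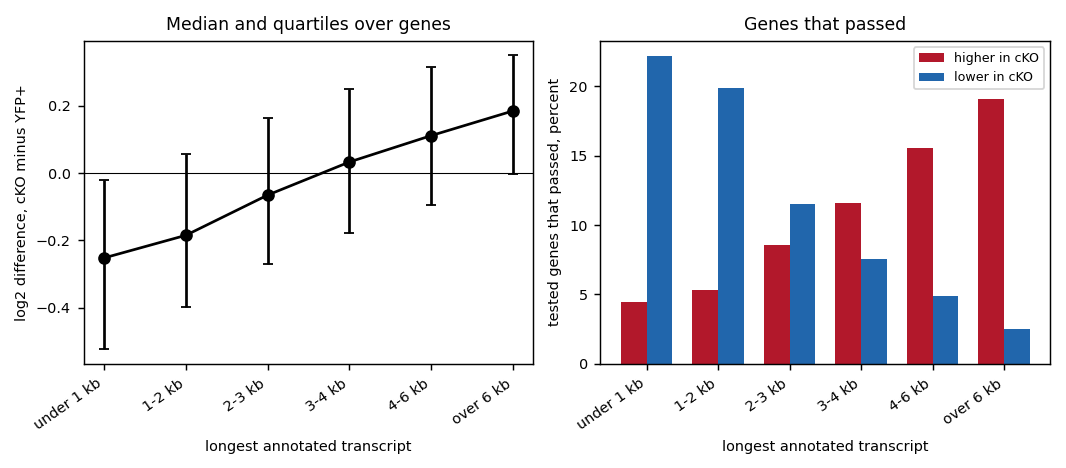
Left, median and quartiles of the log2 difference (cKO minus YFP+) over tested genes by length of the longest annotated transcript; right, percent of genes in each class that passed as higher or lower. The median rises from -0.25 to 0.19 with length.

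The origin difference was then set against that of the thymus, where the same 2 kinds of mice gave 3 libraries each. Of 8372 genes tested in both tissues, 1156 (13.8%) had an origin difference that differed between liver and thymus with limma, 569 more positive and 587 more negative in the liver. Of the 1667 called liver genes that could be tested, 790 were among them, and in 527 of these 790 the thymus difference had the opposite sign. Without thymus YFP+ replicate 1 the count was 684, and without thymus YFP+ replicate 2 it was 758. With the liver labels exchanged, as the free-text description would have it and as a fit added after the data were seen, 1813 genes passed, 562 of them also among the 1156. Of the 1667 liver genes 1126 then passed, 916 with the opposite sign in the thymus, so the values between tissues below hold for the groups as titled. The tables of the tissues were normalized separately, and only differences within a tissue are compared. The liver values were deposited under the name single and the thymus values under the name paired. Whether the reads of the tissues were of different kinds, and how that would act on close copies such as Klra genes and globins, was not tested.

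All 13 called liver members of the immediate early list passed this test, against 790 of all 1667 called liver genes that could be tested. Of the 13, 10 had the opposite sign in the thymus, and with the liver labels exchanged 3 passed. The liver difference by which these genes were chosen is part of the test, so their choice favours passing it. Fos, at 15.1 to 17.1 against 67 to 79.4 FPKM in the liver, was at 36, 70.7 and 69.7 FPKM in thymus cKO and 18.1, 22.6 and 6.46 in thymus YFP+, and its differences were -1.99 and 2.12 (liver minus thymus -4.11, SE 0.525, adjusted p = 0.000593). With the liver labels exchanged Fos had 1.99 in the liver and liver minus thymus -0.14 (limma, adjusted p = 0.879), and Fosb -1.05 (adjusted p = 0.148). Fosb had 2.6 in the thymus and -1.55 in the liver (liver minus thymus -4.15, SE 0.495, adjusted p = 0.000363). In the thymus Fosb was at 3.72, 13.7 and 12.6 FPKM in thymus cKO and 0.817, 1.11 and 0.428 in thymus YFP+, and both Fos and Fosb were lowest of the cKO libraries in replicate 1.

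Ifng was at 41 to 71.8 against 11.5 to 24.3 FPKM in the thymus, with a difference of 1.85, against -0.69 in the liver (liver minus thymus -2.54, SE 0.353, adjusted p = 0.000981). Ccl5 had a difference of 2.36 in the thymus and 0.85 in the liver (liver minus thymus -1.51, SE 0.245, adjusted p = 0.00219). Zbtb16 had -1.31 in the thymus and -0.07 in the liver (liver minus thymus 1.24, SE 0.187, adjusted p = 0.00152).

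Of the 8 called liver genes with the smallest p between tissues, 4 are Klra genes and 1 is Pdcd1. The Klra genes are close copies that share reads, so the 4 are not independent. Klra7 had 3.18 in the thymus and 0.70 in the liver (liver minus thymus -2.47, SE 0.128, adjusted p = 1.1e-06). Klra10 was 1.45 and -0.71, while Klra23 and Klra13-ps had 2.98 and 3.0 in the thymus, of the same sign as in the liver. Pdcd1 was at 0.768, 0.35 and 0.498 FPKM in thymus cKO and 22.3, 20.7 and 35 in thymus YFP+, a difference of -3.97, against -0.68 in the liver (liver minus thymus 3.29, SE 0.222, adjusted p = 1.29e-05). The thymus groups are thus far apart and the liver groups nearer to each other.

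The other 3 genes at the top of this comparison were Gramd3 (-1.52), Ptprv, a receptor-type phosphatase (2.1), and Xkrx (2.29). Gramd3 was at 27.2, 29.5 and 29.9 against 40.6, 39.2 and 42.4 FPKM in the liver (-0.36), and lost the liver call without cKO replicate 1 (adjusted p = 0.086), without cKO replicate 2 (adjusted p = 0.0656) and without cKO replicate 3 (adjusted p = 0.057). Ptprv was at 5.85, 7.05 and 5.69 against 1.4, 2.04 and 1.92 FPKM (1.46), and Xkrx at 43.7, 41.7 and 43.3 against 24.4, 21.1 and 30.9 FPKM (0.86). Sox13, the largest liver increase, was at 0.535 to 1.46 against 1.06 to 1.29 FPKM in the thymus (-0.08, liver minus thymus 2.51, SE 0.251, adjusted p = 0.000119). For the globins, Hba-a1 was at 12.6, 0 and 1.58 FPKM in thymus cKO and 0, 0.070 and 0 in thymus YFP+, so that 1 thymus cKO library holds most of it (liver minus thymus -6.83, SE 0.909, adjusted p = 0.000766). Of the 19 called mitosis genes 9 could be tested in both tissues, and 4 of them passed. That share is near the 790 of all 1667 called liver genes that could be tested.

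**Figure D5:**
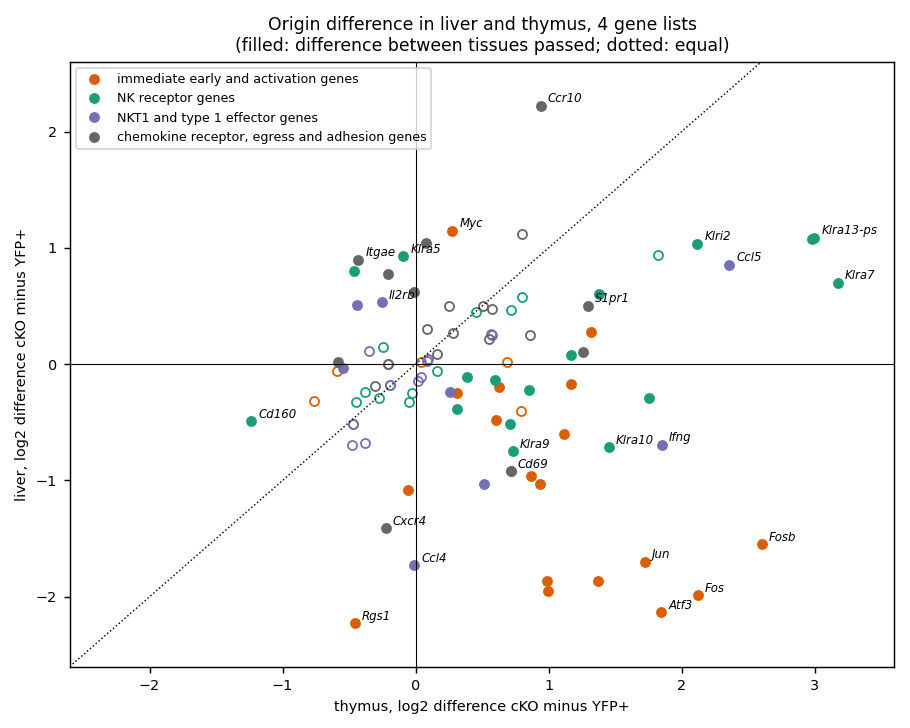
Log2 difference cKO minus YFP+ in the thymus (x axis) and in the liver (y axis) for tested members of 4 lists; filled points passed the test of the difference between tissues, and the dotted line marks equal differences. Fos, Fosb, Jun, Atf3 and Ifng lie at the lower right, with positive thymus and negative liver differences, while Klra7, Klra13-ps and Ccl5 are positive in both. With the liver labels exchanged each point would be mirrored across the horizontal line at 0.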

How the data were processed

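RNA of sorted cells was made into cDNA with a SMARTer low-input kit, per the labels' protocols, and deposited as FPKM per gene and library. Per the submitters' processing notes the authors used TopHat2 2.8.0, Cufflinks 2.1.1 and mm9, in no stated order. Strandedness and depth are not given in the sources used here. More than 1 library kit is named, and which of them made each library is not given either. All 12 value columns were matched to samples by title. Genes were tested where the 6 liver libraries averaged 1 FPKM or more, on log2(FPKM + 1) after median-ratio scaling with limma 3.58.1 (trend, Benjamini-Hochberg, adjusted p under 0.05) in R 4.3.3; python 3.11.15 was used for the rest. The comparison of tissues used 12 libraries, each table scaled separately. Groups share replicate numbers, which the main fits did not treat as pairs.

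The members and gene lists were chosen with earlier results of these data known. Named were up to 2 called, non-overlapping genes per list and direction, the 10 largest increases and decreases, 14 fixed genes, the 8 called genes with the smallest p between tissues, and the 4 mitosis promoters; others are marked, and some genes the rule selects are not reported here. Alternatives were other scalings, filters, pseudocounts, array weights, a replicate block, each library left out and, chosen after seeing the data, removal of a transcript length trend and exchange of the liver labels. Transcript lengths came from GENCODE and promoters from RefSeq (GRCm38.p6), by symbol. Fits were tested on simulated data.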

Additional observations from a re-analysis of the deposited data

Results flagged for a closer look

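Each value here is the origin difference (cKO minus YFP+, log2) in the liver minus that in the thymus, and each was singled out because limma's test of this difference between tissues passed. The test passed for 1156 of 8372 genes, and the genes given are those of them that the text names by its rule or that the immediate early list holds, 63 in all. Over 940 refits of these genes (other scalings, a replicate block or 1 library left out) 859 kept direction and call, 81 lost the call and none reversed, and 52 of the 63 genes kept the call throughout. These values hold for the liver groups as titled: with the liver labels exchanged, as the submitters' free-text description would have them, 1813 genes passed, and of the 63 genes 40 passed, with other values. The 23 that did not include Fos, Fosb, Jun, Atf3, Nr4a1, Dusp1, Tnfaip3, Nfkbia, Klf6 and Cd69.

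More negative in the liver were the immediate early genes Fosb (-4.15), Fos (-4.11), Atf3 (-3.98), Jun (-3.42), Nr4a1 (-3.23), Dusp1 (-2.95), Tnfaip3 (-2.85), Nfkbia (-1.83), Rgs1 (-1.77), Klf6 (-1.72), Cd69 (-1.63) and Rgs2 (-1.03), while Myc, a growth regulator, was at 0.869. The chaperone genes Dnajb1 and Hspd1 were at -2.62 and -0.782.

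Among receptor genes of NK cells the values were Klra7 (-2.47), Klra10 (-2.17), Klra13-ps (-1.91), Klra23 (-1.91), Klra9 (-1.48) and Klre1 (-0.775), and reads shared among Klra copies leave each uncertain. Among effector and lineage genes they were Ifng (-2.54), Ccl4 (-1.72), Ccl3 (-1.55), Ccl5 (-1.51), Il4 (1.22), Zbtb16 (1.24), Blk (1.12), Plac8 (-2.59), Tnfrsf4 (-1.67) and Sh2d1a (-0.602). Pdcd1, which encodes PD-1, had the largest positive value of the 63, 3.29.

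Cytokine, chemokine and survival genes gave Ccr10 (1.28), Il2rb (0.788), Il7r (0.455), Socs3 (-1.09), Tyk2 (0.928), Bcl2 (0.746), Fadd (0.838) and Gpr183 (-0.471). Genes with large liver increases or small p-values gave Sox13 (2.51), Rln3 (1.78), Cd163l1 (1.61), Xkrx (2.29), Ptprv (2.1) and Gramd3 (-1.52). Mir1904, a large liver decrease, was at -1.54.

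Globin copies were at Beta-s (-8.12), Hbb-b2 (-8.09), Hbb-b1 (-8.07), Hba-a1 (-6.83) and Hba-a2 (-6.83), and Apoe and Trf at -2.38 and 0.657. Cell division genes were at Ube2c (-2.04), Rfc4 (-1.2) and Tk1 (-1.0), and genes of metabolism and presentation at Acly (0.641), Pgam1 (-0.674), Uqcrc1 (0.382), Uqcrc2 (-0.484), Psmb9 (-1.4) and Nlrc5 (0.861). The 11 genes that lost the call in at least 1 refit were Bcl2, Ccl4, Il7r, Nlrc5, Plac8, Sh2d1a, Socs3, Tk1, Trf, Uqcrc1 and Uqcrc2. Plac8 lost it with a pseudocount of 0.1 alone, Trf without thymus YFP+ replicate 3 or thymus cKO replicate 3, and each of the other 9 without thymus YFP+ replicate 1 and in at least 4 further refits.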

How the results depend on the processing

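The liver comparison gave 1194 to 2284 genes when 1 library was left out (596 to 1047 higher, 598 to 1237 lower), against 2079. Array weights gave 3299 genes, 1607 higher and 1692 lower, and the values as deposited gave 1889 lower genes. The other liver settings that kept all libraries stayed within 1.5 times each count. With a replicate block 1744 genes passed in the liver and 796 in the comparison of tissues. Deviations of same-numbered libraries correlated at 0.0674, 0.0222 and -0.0641, and those of unlike numbers at -0.115 to 0.112. These values cannot decide whether equal numbers mark paired samples, because a small shared effect would leave no trace in them. The comparison of tissues gave 684 to 1434 genes without 1 library, and was more than 1.5 times under 1156 without thymus YFP+ replicate 1 or 2 alone. With the liver labels exchanged it gave 1813.

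Gata3, not called in any of these fits, changed sign with the values as deposited (-0.10), array weights (-0.0083) and the length trend removed (-0.010), and lay between -0.051 and 0.063 without 1 library. Zbtb16 lay between -0.20 and 0.023 without 1 library. Of genes named after their values were seen, Cd3e changed sign with the values as deposited (-0.020) and Tcf12 with array weights (0.024), and without 1 library Tcf12 lay between -0.093 and 0.081. Of 112 reported genes of the naming rule 108 were tested and 103 called, and 21 of the called lost the call in a fit without 1 library. Of their 1600 values under alternatives 1489 kept direction and call, 100 lost the call, 6 gained it and 5 reversed. The cause of these changes was not tested. Depth in reads is unknown, so counting error could not be set beside any value.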
